A study of Homo sapiens with 4 samples.

Results

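The zinc finger genes of human chromosome 19 are the subject here, taken as the protein-coding genes of that chromosome whose GENCODE symbol is ZNF followed by a number. The rule used gene names and positions and no measured value, and it gave 246 genes of the 1476 protein-coding genes on the chromosome, out of 20033 in the genome. Their accessibility was read from 4 ATAC-seq libraries of HepG2, a human hepatocellular carcinoma line, each from 50000 cells that had been treated with DNase before the nuclei were taken. Control cells (n = 2) carried the treatment label untreated, and the other group (n = 2) received 5 µM tazemetostat, an inhibitor of the histone methyltransferase EZH2, for 48 h. Both groups were labelled wild type, and no label gave a vehicle for the control cells. The study asked how chromatin accessibility differs once EZH2 is inhibited. One established line was used, and the labels do not say whether replicates came from separate cultures, so each p-value here measures only the spread between these libraries.

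Most proteins of this kind join an array of C2H2 zinc fingers, which reads DNA, to a KRAB domain, which recruits the corepressor TRIM28 and through it the H3K9 methyltransferase SETDB1 and HP1 proteins. Many of them bind and silence transposable elements. The genes multiplied by tandem duplication, and neighbours therefore often resemble each other in coding sequence and in promoter. Their bodies, above all the exons that code for fingers, are known in several cell types for H3K9me3 laid down through ZNF274, while their promoters stay active.

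Runs of members whose 5' ends lay within 500 kb of the next were taken as clusters where they held at least 5 members, and were numbered 1 to 10 from the short arm end. The 10 clusters held 232 members and the other 14 stood outside them. Cluster 1 ran from ZNF554 to ZNF77 (5 members), cluster 2 from ZNF414 to ZNF846 (13), cluster 3 from ZNF653 to ZNF490 (25), cluster 4 from ZNF101 to ZNF254 (37) and cluster 5 from ZNF302 to ZNF792 (5). Then followed cluster 6 from ZNF146 to ZNF573 (26 members), cluster 7 from ZNF575 to ZNF180 (23), cluster 8 from ZNF175 to ZNF331 (39), cluster 9 from ZNF628 to ZNF835 (16) and cluster 10 from ZNF264 to ZNF446 (43). The longest was cluster 4, with 4365 kb between its outermost 5' ends.

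Promoter sequences show what the members of a cluster have in common, and 7 are given because the results turn on them. Each runs 5' to 3' from 250 bases before to 50 bases after the RefSeq start (GRCh38.p14). Capitals mark GGGCGG (named SP), CCAAT (named NFY), CCGGAAG (named ETS) and ATGCAAAT (named OCT) on either strand, so that CCGCCC and CTTCCGG are the first and the third read from the other strand. ZNF564 (chr19:12551433-12551732, minus strand) and ZNF442 (chr19:12365634-12365933, minus strand) lie in cluster 3 and had tag counts among the 5 highest of the members. ZNF91 (chr19:23395422-23395721, minus strand), ZNF85 (chr19:20923001-20923300, plus strand) and ZNF682 (chr19:20039456-20039755, minus strand) lie in cluster 4, where the first had a peak in every library, the next in none and the last under tazemetostat alone. ZNF274 (chr19:58182811-58183110, plus strand) and ZNF460 (chr19:57279732-57280031, plus strand) lie in cluster 10 and had higher tag counts under tazemetostat.
ZNF564 promoter: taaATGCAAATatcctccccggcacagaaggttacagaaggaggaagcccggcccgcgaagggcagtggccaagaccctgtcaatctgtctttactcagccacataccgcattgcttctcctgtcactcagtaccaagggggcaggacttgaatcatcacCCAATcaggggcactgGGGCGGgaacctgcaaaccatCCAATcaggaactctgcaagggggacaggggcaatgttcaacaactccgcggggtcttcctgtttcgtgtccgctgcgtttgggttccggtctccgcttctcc
ZNF442 promoter: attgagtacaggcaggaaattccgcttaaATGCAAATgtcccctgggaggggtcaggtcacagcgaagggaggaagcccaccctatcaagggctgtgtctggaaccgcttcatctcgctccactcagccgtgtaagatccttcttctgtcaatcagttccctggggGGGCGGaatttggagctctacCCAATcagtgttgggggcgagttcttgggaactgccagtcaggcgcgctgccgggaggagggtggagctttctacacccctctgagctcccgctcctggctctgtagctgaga
ZNF91 promoter: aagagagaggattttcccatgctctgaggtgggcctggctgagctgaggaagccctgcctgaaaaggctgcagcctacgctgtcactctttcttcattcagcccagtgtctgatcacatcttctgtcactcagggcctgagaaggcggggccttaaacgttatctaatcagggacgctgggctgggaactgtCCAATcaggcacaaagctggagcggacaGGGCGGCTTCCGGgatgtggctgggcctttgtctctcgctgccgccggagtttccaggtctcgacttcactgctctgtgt
ZNF85 promoter: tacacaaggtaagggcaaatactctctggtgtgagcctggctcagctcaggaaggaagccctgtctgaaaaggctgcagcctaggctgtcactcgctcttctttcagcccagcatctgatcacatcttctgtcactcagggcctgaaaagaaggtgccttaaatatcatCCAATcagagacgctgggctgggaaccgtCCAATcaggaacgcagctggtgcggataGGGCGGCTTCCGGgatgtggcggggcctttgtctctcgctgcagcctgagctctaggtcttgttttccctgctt
ZNF682 promoter: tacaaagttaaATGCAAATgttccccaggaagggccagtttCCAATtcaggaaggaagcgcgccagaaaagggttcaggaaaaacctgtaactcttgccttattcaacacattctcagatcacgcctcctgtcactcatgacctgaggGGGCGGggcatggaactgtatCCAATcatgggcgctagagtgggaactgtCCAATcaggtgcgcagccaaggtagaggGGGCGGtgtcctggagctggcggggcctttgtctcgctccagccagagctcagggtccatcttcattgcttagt
ZNF274 promoter: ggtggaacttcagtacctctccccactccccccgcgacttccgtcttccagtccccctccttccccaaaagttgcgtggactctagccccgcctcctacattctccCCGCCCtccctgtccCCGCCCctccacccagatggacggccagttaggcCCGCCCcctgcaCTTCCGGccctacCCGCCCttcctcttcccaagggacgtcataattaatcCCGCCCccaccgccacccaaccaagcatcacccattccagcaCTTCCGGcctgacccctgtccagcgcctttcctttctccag
ZNF460 promoter: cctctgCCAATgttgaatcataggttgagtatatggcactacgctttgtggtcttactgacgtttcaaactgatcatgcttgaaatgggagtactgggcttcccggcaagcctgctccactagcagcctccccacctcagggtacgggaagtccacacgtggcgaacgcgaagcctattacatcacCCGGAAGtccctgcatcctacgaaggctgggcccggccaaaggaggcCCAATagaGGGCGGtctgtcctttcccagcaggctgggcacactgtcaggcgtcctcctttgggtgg

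Shared stretches appeared on reading these promoters side by side. ZNF91 and ZNF85 hold the SP and ETS letters directly next to each other at matching places, although one promoter was called in all 4 libraries and the other in none. The letters GTCACTCAG, left in lower case, occur in ZNF564, ZNF91 and ZNF85, and the OCT letters open ZNF564, ZNF442 and ZNF682. Both strings were picked after the promoters had been read. ZNF274 differs from the cluster 3 and cluster 4 promoters, with 5 SP and 2 ETS matches, no NFY match and 16 CpG dinucleotides against 9 to 13 in those 5 promoters.

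RefSeq promoters were matched for 216 of the 246 members, and the same letters were counted in all of them on both strands. ETS letters occurred in 45.4% of the member promoters, against 13.0% of 951 other coding genes of chromosome 19 and 14.4% of 15351 coding genes in the genome. NFY letters were in 53.7% of the members and 37.6% of the other chromosome 19 genes, while SP letters were nearly as frequent in both sets, at 67.6% and 66.6%. The make-up changed from cluster to cluster. All 29 matched promoters of cluster 4 held NFY letters and 72.4% held ETS letters, whereas in cluster 3 NFY letters were in 91.7% and ETS letters in 8.33%. Cluster 10 had 70% with NFY and 67.5% with ETS letters, and cluster 8 had 62.5% with ETS letters but 28.1% with NFY letters. In cluster 6 none of the 3 strings passed 28%. CRE letters (TGACGTCA) were found in 41.7% of the cluster 2 promoters and in 2.64% of all coding promoters. OCT letters were in 7 of 24 promoters of cluster 3 and 4 of 29 of cluster 4 and in no promoter of the other clusters, against 1.70% of all coding promoters. GTCACTCAG was in 54.2% and 69.0% of the promoters of clusters 3 and 4 and in 0.632% of all coding promoters. The remaining strings, NRF1 (GCGCATGC), YY1 (AAGATGGC), ZBTB33 (CTCGCGAG) and ZNF143 (ACTACAAT), were each in under 7% of member promoters. The median number of CpG dinucleotides was 10 in cluster 4 and 29.5 in cluster 9, against 20 over all members and 22 over all coding promoters. These matches describe letters in a window and are no evidence of binding.

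**Figure D1:**
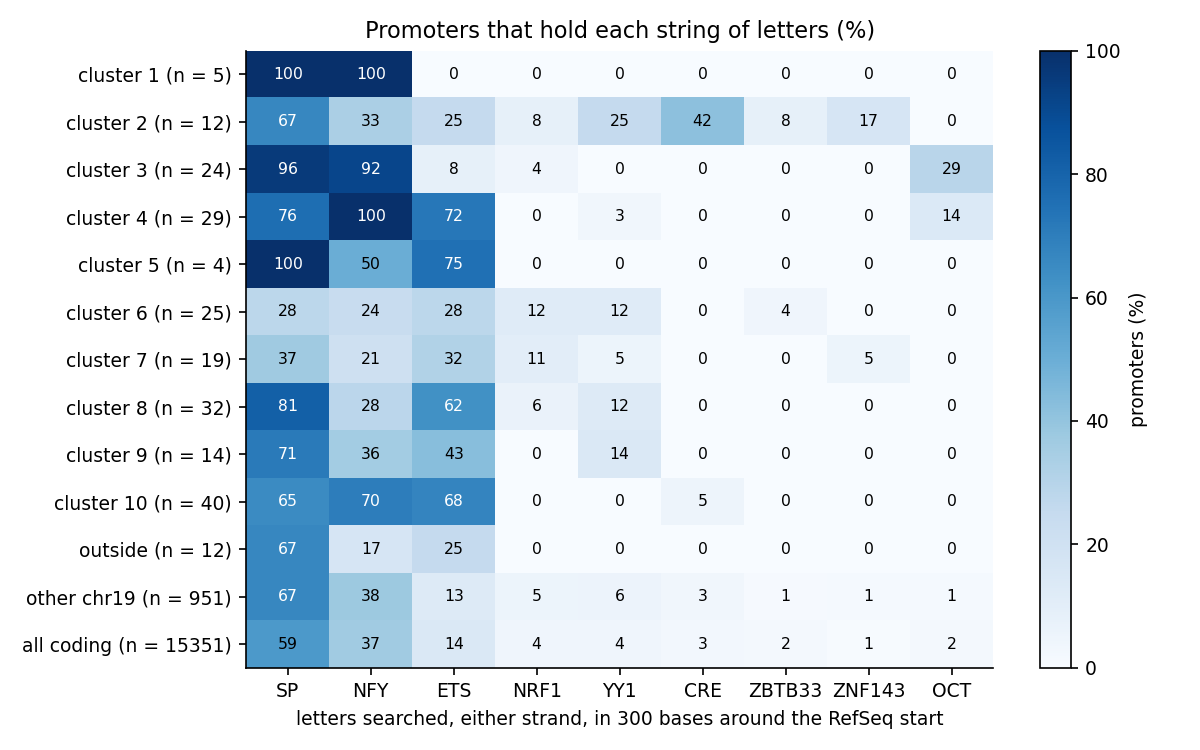
Share of promoters (%) that hold each string of letters on either strand in 300 bases around the RefSeq start, with clusters of members in rows beside the other chr19 coding genes and all coding genes. NFY letters reach 100% in clusters 1 and 4, ETS letters 72.4% in cluster 4 and 8.33% in cluster 3, and OCT letters appear among members in clusters 3 and 4 alone.

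The libraries held 17.2, 23.8, 19.8 and 26.6 M mapped tags, in the order control replicate 1, control replicate 2, tazemetostat replicate 1 and tazemetostat replicate 2, which is kept for every set of 4 values below. Tags in peaks made up 4.32%, 5.69%, 11.5% and 9.81% of them, and 26133, 34768, 55313 and 54157 peaks were called, of which 1078, 1219, 2015 and 1749 lay on chromosome 19. Where no peak was called, no value exists for that library. The 5' ends of 3 of 7 hepatocyte markers (APOA1, APOB and HNF4A) had a peak in all 4 libraries, ALB had one under tazemetostat alone, and SERPINA1 and TTR had none. At AFP only the peak of tazemetostat replicate 1 reached within 1 kb of the 5' end. The region of overlapping peaks that holds it had 1 peak in each library, with tag counts of 19.8, 34.5, 68 and 48.9. The 4 markers of other lineages (PTPRC, CD3E, COL1A1 and PECAM1) had no peak at the 5' end in any library. Over all regions with 1 peak in each library the median log2 change, tazemetostat minus control, was 0.70, and changes of members are read against that value.

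Zinc finger 5' ends were called more often than those of other genes, in every library. A peak within 1 kb of the 5' end was called at 138 and 154 of the 246 members in the controls and at 186 and 175 under tazemetostat. These are shares of 56.1%, 62.6%, 75.6% and 71.1%, with 95% Wilson intervals of 49.8% to 62.2%, 56.4% to 68.4%, 69.9% to 80.6% and 65.2% to 76.4%. Such intervals take genes as independent draws and do not measure the spread between libraries. Among the 1230 other coding genes of the chromosome the shares were 28.5%, 29.8%, 43.7% and 38.3%, and among coding genes of other chromosomes 35.0%, 41.6%, 52.2% and 49.4%. The gap between members and the other chromosome 19 genes was 27.6, 32.8, 32.0 and 32.9 percentage points, a mean of 31.3. Inside the spans of the clusters, 111 other coding genes were called at 29.7%, 34.2%, 43.2% and 39.6%.

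The peak caller kept a peak only where it reached a fold of 4 over the surrounding 10 kb, and members also stood further above that limit. Median folds over the local background at regions with 1 peak in each library were 8.615, 6.825, 7.525 and 6.97 for members and 5.29, 5.12, 5.91 and 5.33 for the other chromosome 19 genes. Median tag counts ran the opposite way. They were 17.5, 20.2, 36.05 and 29.15 tags per 10 M mapped tags over the 114 member regions, and 22.1, 26.1, 40.3 and 34.65 over the 200 regions of the other genes. The 27 regions of other genes inside the cluster spans had median tag counts of 18, 20.2, 36.3 and 30.5, much like the members, and median folds of 6.63, 6.58, 6.55 and 5.39. The lower tag count was thus also seen at the neighbours of members in the same spans, while the median folds of members were higher than theirs in each library. These sets are not disjoint. Of the 191 members with a region, 30 shared it with the 5' end of a coding gene that is no member, and such regions count on both sides. How many of the 27 regions are shared was not counted. The part of the local background in the call shares was not tested. With peaks of at least 8-fold alone, 30.1%, 21.1%, 32.1% and 24.8% of the members were still called, against 3.01%, 2.36%, 5.61% and 3.17% of the other chromosome 19 genes. Peak widths were much alike, with medians of 458.5, 545, 633 and 623 bp for members and 490, 545, 644.5 and 620.5 bp for the others. Averaged over the libraries of a group, the median width at members was 126 bp larger under tazemetostat. Over all regions with 1 peak in each library the medians were 409, 502, 579 and 585 bp, so wider peaks under tazemetostat were not particular to members.

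The share of members called rose from 59.3% ± 4.60 (SD, n = 2) in the controls to 73.4% ± 3.16 (SD, n = 2) under tazemetostat, by 14.0 percentage points. Each tazemetostat library had a higher share than either control. An exact two-sided permutation test of 2 against 2 libraries cannot go below 0.3333, so no such test could pass 0.05. In bulk cells, more cells with an open promoter and more open copies per cell cannot be told apart. The other chromosome 19 genes rose by 11.8 points, from 29.2% ± 0.920 to 41.0% ± 3.79 (SD, n = 2 each), and genes of other chromosomes by 12.5 points. The gap between members and other chromosome 19 genes was thus 30.2 ± 3.68 points in the controls and 32.4 ± 0.632 under tazemetostat (SD, n = 2 each), a difference of 2.24 points that lay within the spread of the controls. Against the 111 other coding genes inside the cluster spans it was 27.4 ± 1.41 and 31.9 ± 0.614 points (SD, n = 2 each). That difference of 4.56 points was larger than either SD and was not tested. When the 26133 highest peaks of each library were used, the rise at members shrank to 5.69 points, and with peaks of at least 8-fold to 2.85 points.

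Calls fell into few patterns. All 4 libraries had a peak at 127 members (51.6%) and at 272 other chromosome 19 genes (22.1%), whereas no library had one at 55 members (22.4%) and at 621 of the others (50.5%). Both tazemetostat libraries and neither control library had a peak at 16 members, or 6.50%, and the background was 5.37% of all coding genes. The reverse, both controls alone, was seen at 0 members, and the background was 0.14%. The upper bound of the 95% Wilson interval, which takes genes as independent draws, was 1.54%. Shares at members were therefore near those of all coding genes. Another 23 members were called everywhere but in control replicate 1, 8 everywhere but in control replicate 2, and 10 in tazemetostat replicate 1 alone. Single calls in a control library were seen at 4 members, ZNF114, ZNF154, ZNF586 and ZNF132, which were named after their values were seen.

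**Figure D2:**
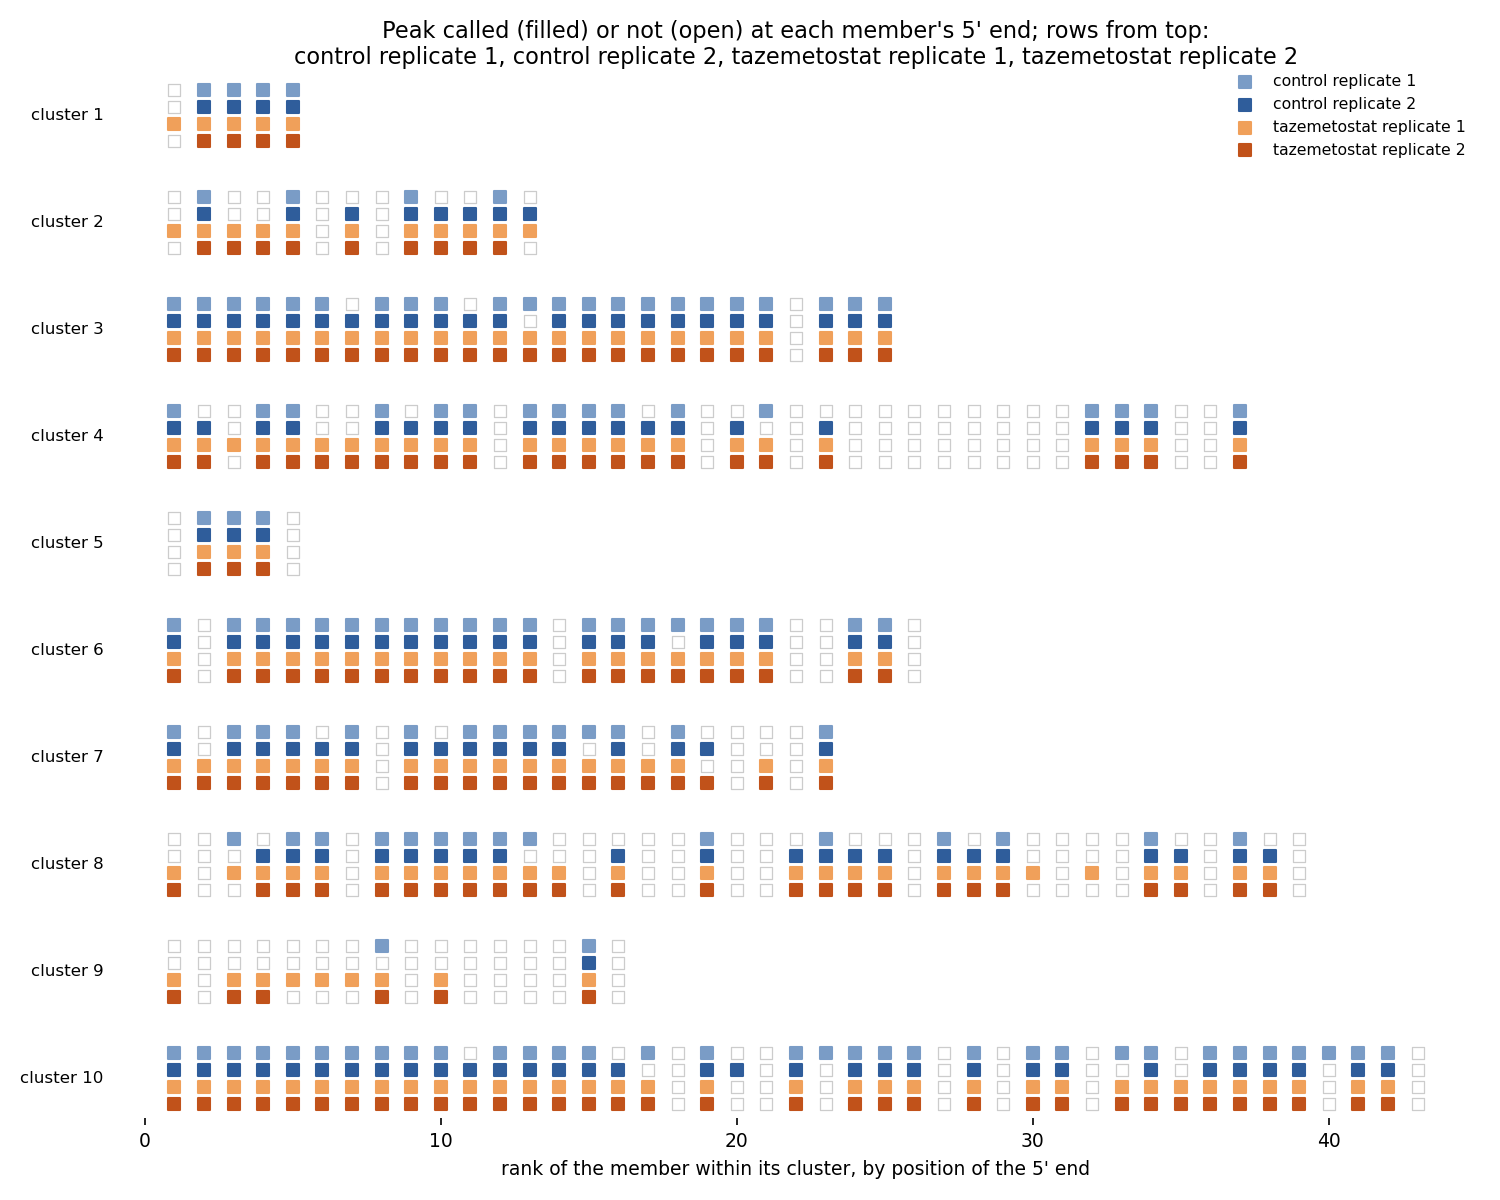
Peaks called within 1 kb of the 5' end of each of the 232 members in clusters, in order of position within the cluster (horizontal axis, rank) and with 1 row per library, filled where a peak was called and open where none was. The run of 8 empty columns in cluster 4 spans ZNF676 to ZNF730, and cluster 9 is nearly empty in the control rows at these GENCODE 5' ends.

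Calls also differed between clusters. Averaged over the 4 libraries, the share of called members ran from 93% in cluster 3 to 28.1% in cluster 9, a range of 64.9 points. Members of cluster 3 were called at 88%, 92%, 96% and 96%, and 21 of its 25 members had a peak in all 4 libraries. Clusters 1, 6, 10 and 7 followed with means of 85%, 79.8%, 77.3% and 75%. Clusters 2, 5, 4 and 8 had means of 61.5%, 60%, 56.1% and 55.8%. Cluster 9 stood lowest, with 2 and 1 of its 16 members called in the controls and 9 and 6 under tazemetostat, or 9.38% and 46.9% as group means. These are shares at GENCODE 5' ends. In cluster 9 the RefSeq start lay within 1 kb of that end at 71.4% of matched members, against 84.3% of all matched members. ZNF444 and ZNF583 of this cluster had no peak at the GENCODE 5' end but one in all 4 libraries at the RefSeq start. Other clusters also held such members, and shares by cluster at RefSeq starts were not computed. The 23 other coding genes inside cluster 9 had a mean share of 8.70%, against 65.4% for the 13 others inside cluster 3 and 87.5% for the 6 inside cluster 6. When 5' ends up to 1 Mb apart were joined, cluster 9 merged with its neighbour and the range shrank to 37.2 points. Members at an edge of a cluster (the outermost 2 at each end) were called in 62.5% on average, inner members in 68.6% and members outside clusters in 46.4%.

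Treatment differences also varied by cluster. Cluster 9 gained 37.5 points, cluster 2 gained 30.8 and clusters 7 and 8 gained 19.6 and 19.2. In cluster 2 the controls themselves lay far apart, at 30.8% and 61.5%, so that its lower tazemetostat library (69.2%) was closer to control replicate 2 than the controls were to each other. Clusters 6 and 10 changed by 1.92 and 3.49 points, and the 5 members of cluster 5 were called alike in all 4 libraries. Whether clusters differ from each other in this response was not tested.

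**Figure D3:**
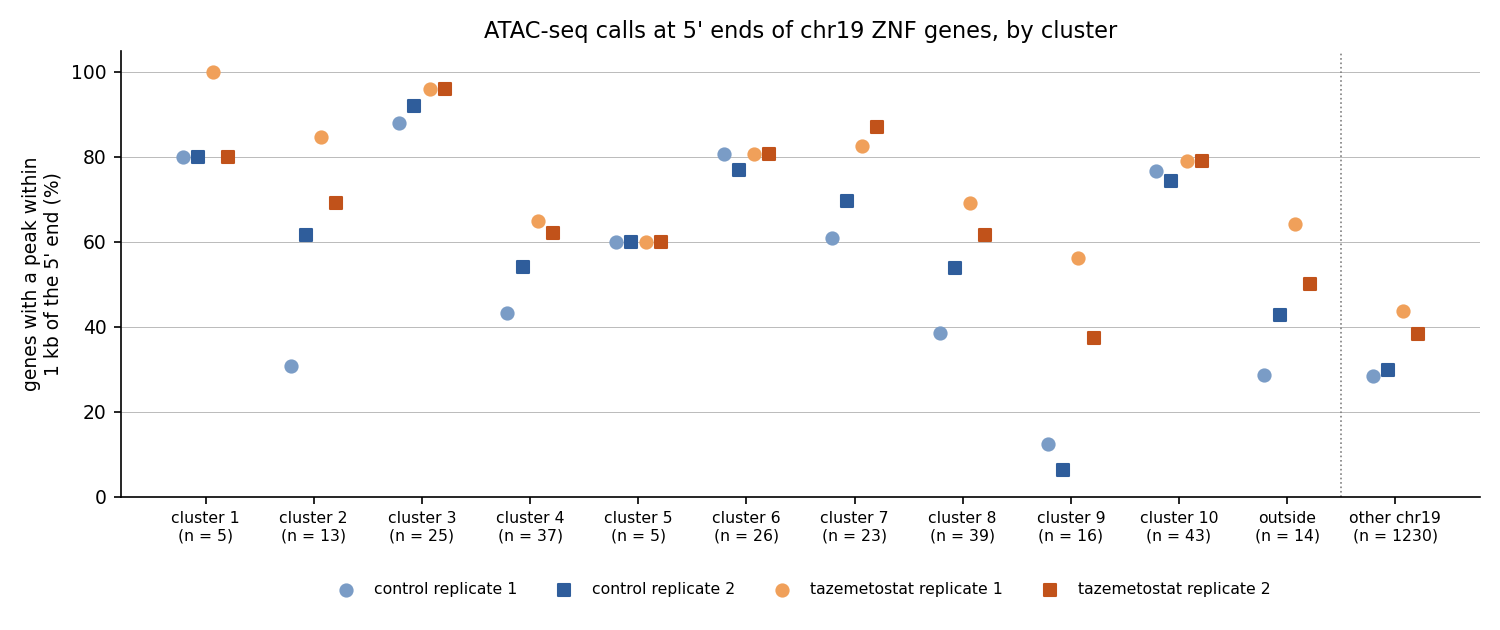
Share of genes (%, vertical axis) with a peak within 1 kb of the 5' end, by cluster of members, for members outside clusters and for the other chr19 coding genes, with 1 point per library. Cluster 3 lies between 88% and 96%, while cluster 9 has 12.5% and 6.25% in the controls and 56.2% and 37.5% under tazemetostat.

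Runs of neighbours in the same state were read along each cluster. The longest stretch of members called in all 4 libraries held 11 genes, from ZNF566 to ZNF568 in cluster 6 over 426 kb, followed by 10 genes from ZNF264 to ZNF772 in cluster 10 and 8 from ZNF20 to ZNF443 in cluster 3. The longest stretch called in no library was the 8 genes ZNF676, ZNF729, ZNF98, ZNF492, ZNF99, ZNF723, ZNF728 and ZNF730 of cluster 4, over 859 kb. Next came 4 genes of cluster 9, ZNF583, ZNF667, ZNF471 and ZNF470, though ZNF583 had a peak in all 4 libraries at its RefSeq start. Cluster 4 held 13 of the 55 members without any call, cluster 8 held 12 and cluster 9 held 7. How the alignment treated tags that match several places was not stated, so for close paralogues such as those of cluster 4 a missing peak and shared tags cannot be told apart. Matched promoters of the uncalled cluster 4 members resembled the rest of that cluster in their letters: 7 of 8 held ETS letters, 8 of 8 NFY letters and 7 of 8 GTCACTCAG, against 14, 21 and 13 of the 21 with a call.

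Part of the uncalled set depended on which start was used. Of the 47 uncalled members with a RefSeq promoter, 31 (66.0%) had the RefSeq start within 1 kb of the GENCODE 5' end, against 84.3% of all matched members. When the window was moved to the RefSeq start, 14 of the 47 had a peak in at least 1 library, and 9 had one in all 4, namely ZNF112, ZNF331, ZNF420, ZNF444, ZNF546, ZNF565, ZNF583, ZNF709 and ZNF765. ZNF331, an imprinted gene in several tissues, and ZNF420, a KRAB protein known to bind and restrain p53, therefore had peaks at the RefSeq start and none at the GENCODE 5' end. Over all matched members the shares at the RefSeq start were 59.7%, 69.0%, 80.6% and 77.8%, and those of the other chromosome 19 genes 28.1%, 29.2%, 45.1% and 38.9%. This annotation was tried after the data were seen.

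Tag counts could be tested at 117 members, those whose region had exactly 1 peak in each library, and limma was fitted over all 15383 such regions of the genome with Benjamini-Hochberg adjustment. This filter leaves out members called in part of the libraries, and 10 members called in all 4 were left out because their nearest region did not have exactly 1 peak in every library. At an adjusted p under 0.05, 43 of the 117 tested members (36.8%) were higher under tazemetostat, where 42.7% of all regions tested were. None was lower, where 0.247% of all regions were, and none was lower at an unadjusted p under 0.05, where 0.442% of all regions were. Both tazemetostat values lay above both control values at 99 members, or 84.6%, against 81.6% of all regions. The members' shares were thus near the background. Their median log2 change was 0.69, against 0.70 for all regions and 0.63 for 250 other chromosome 19 genes, of which 82 (32.8%) were higher. For the 28 tested other genes inside the cluster spans it was 0.83, and 16 of them (57.1%) were higher. Per kb of peak 32 of the 117 members were higher, where 5063 of all 15383 regions were. All 117 changes were above 0, from 0.02 at ZNF526 to 1.43 at ZNF837. That sign depended on the scale: with each library centred on its own median 45 of 117 changes were above 0, with TMM factors in edgeR 59 and with DESeq2 size factors 57. No member passed the threshold in any of those 3 fits, in which 1, 3 and 1 members had an unadjusted p under 0.05 upward and 1, 2 and 1 downward. How many members passed in limma depended on which library was left out, while their median log2 change stayed near that of all regions. It was 0.50 without control replicate 1 and 0.82 without control replicate 2, against 0.57 and 0.80 over all regions. Without tazemetostat replicate 1 it was 0.60, against 0.61 over all regions. Without tazemetostat replicate 2 both medians were 0.80.

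Within each library, members had lower tag counts than the other chromosome 19 genes as a whole, whereas the other genes inside the cluster spans had nearly the same level. Regions shared by a member and another gene count on both sides of these comparisons. The difference of median log2(tag count + 1) was -0.32, -0.35, -0.16 and -0.24, and it was smaller under tazemetostat by 0.14, with SDs of 0.02 and 0.06 (n = 2 each). Against the other genes inside the cluster spans the differences were -0.038, 0, -0.0097 and -0.063, and the group means of these differed by -0.017, so that the gap was at most 0.063 there and did not narrow. Against coding genes of other chromosomes the differences were -0.13, -0.23, -0.14 and -0.21, and their group means differed by 0.00424. Per kb of peak the narrowing against other chromosome 19 genes was 0.05, and with peaks of at least 8-fold it was 0.06.

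**Figure D4:**
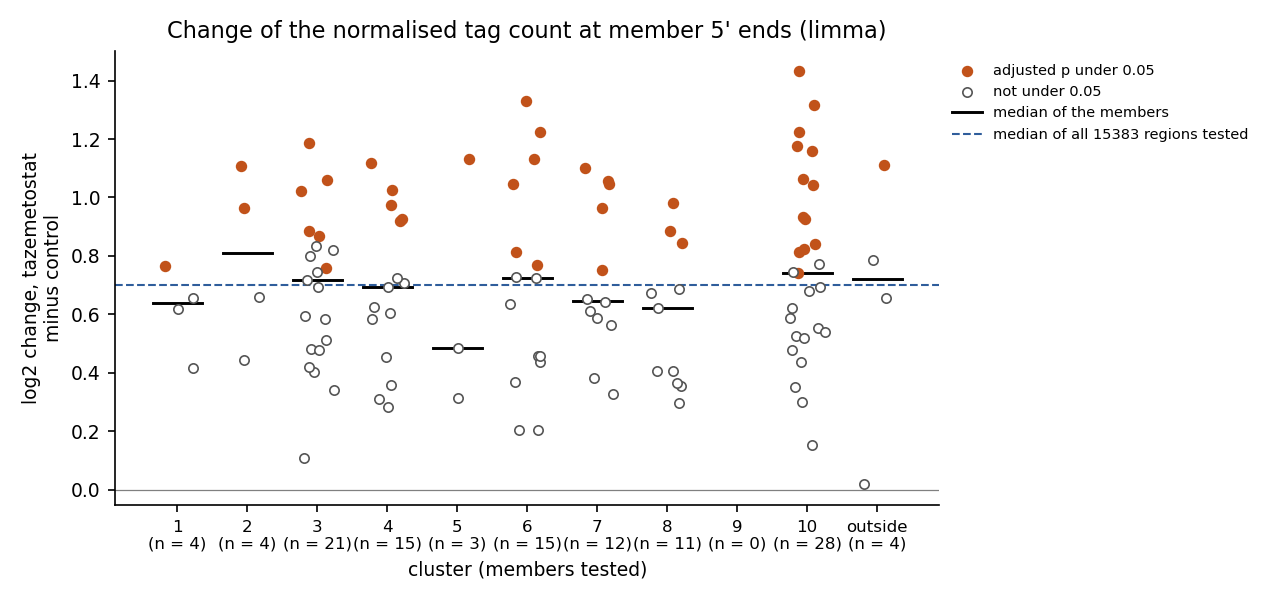
Log2 change of the normalised tag count (tazemetostat minus control, limma on log2(tag count + 1), vertical axis) at the 117 tested members by cluster, with filled points for adjusted p under 0.05, black bars for the median of each cluster and a dashed line at 0.70, the median of all 15383 regions. All points lie above 0 on this scale, though with each library centred on its median 45 of the 117 do, and cluster 9 has no tested member.

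Cluster medians of the log2 change stayed close to the genome, from 0.49 in cluster 5 (3 members tested) to 0.81 in cluster 2 (4 members tested). Cluster 10 had 13 of its 28 tested members higher, cluster 3 had 6 of 21, cluster 6 had 6 of 15, cluster 4 had 5 of 15, cluster 7 had 5 of 12 and cluster 8 had 3 of 11. The 43 members that were higher had changes of 0.74 to 1.43, and at each of them both tazemetostat values lay above both control values. The 43 were chosen by their rise in the same values, so that separation is no further evidence. In cluster 3 they were ZNF653, ZNF627, ZNF20, ZNF625, ZNF136 and ZNF442, in cluster 6 ZNF461, ZNF527, ZNF570, ZNF569, ZNF571 and ZNF607, in cluster 7 ZNF283, ZNF230, ZNF223, ZNF226 and ZNF180, and in cluster 4 ZNF626, ZNF430, ZNF714, ZNF493 and ZNF724. The 13 of cluster 10 were ZNF460, ZNF547, ZNF548, ZNF772, ZNF549, ZNF551, ZNF776, ZNF552, ZNF274, ZNF8, ZNF497, ZNF837 and ZNF324. The controls differed from each other by over 2-fold at 11 of the 117 tested members and the tazemetostat libraries at 4.

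The highest mean tag count of the tested members was at ZNF564 in cluster 3 (chr19:12551171-12552047). It had tag counts of 50.6, 45.8, 80.6 and 79.1 per 10 M mapped tags. Both tazemetostat values were higher, but the change of 0.72 (SE 0.29) did not pass in limma (adjusted p = 0.0521), lay close to the median of all regions and turned to -0.042 with centred libraries. ZNF101 at the start of cluster 4 had 40.7, 55.0, 79.6 and 76.4, and ZNF556 in cluster 1 had 41.9, 55.0, 82.6 and 70.4. In neither did the groups overlap, and their changes of 0.71 and 0.66 were again near the genome and turned negative, by at most 0.10, with centred libraries, TMM or DESeq2 factors. ZNF442, also in cluster 3 (chr19:12365423-12366220), had 40.1, 39.5, 93.7 and 75.3. Its controls were almost equal and both tazemetostat values were far above them, a change of 1.06 (SE 0.30, limma adjusted p = 0.0151). ZNF146, a small protein made almost only of zinc fingers, opens cluster 6 and had 33.2, 47.1, 79.6 and 54.6, with a change of 0.72 (SE 0.31, adjusted p = 0.0622) that was -0.037 with centred libraries.

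The largest change was at ZNF837 in cluster 10 (chr19:58380528-58381496), with tag counts of 26.8, 17.2, 63.0 and 56.5. The groups stood far apart, and the peak widened from 462 and 300 bp in the controls to 880 and 968 bp. The change was 1.43 (SE 0.31, limma adjusted p = 0.0068), and per kb of peak it was 0.16 (adjusted p = 0.534). ZNF607, near the end of cluster 6, had 11.6, 15.5, 41.8 and 29.7, and its peak widened from 377 and 467 bp to 810 and 974 bp. Its change was 1.33 (SE 0.31, adjusted p = 0.0087) and 0.30 per kb of peak (adjusted p = 0.241). ZNF324, near the end of cluster 10, had 10.5, 20.6, 41.3 and 35.4. The controls lay apart, yet both were below the lower tazemetostat value, with a change of 1.32 (SE 0.33, adjusted p = 0.0107). ZNF571 in cluster 6 had 8.14, 27.3, 28.2 and 47.4. Here the replicates spread widely and control replicate 2 almost reached tazemetostat replicate 1, so that the change of 1.22 had the larger SE of 0.40 (adjusted p = 0.0248). ZNF460, whose promoter held 1 ETS match, had 16.9, 38.7, 60.5 and 62.1 and a change of 1.22 (SE 0.34, adjusted p = 0.0148). These 5 kept a positive change under every alternative that gave a value, though none passed once the libraries were centred or scaled by TMM or DESeq2. Per kb of peak ZNF324 alone passed (0.54, limma adjusted p = 0.0431), with ZNF571 at 0.41 (adjusted p = 0.117) and ZNF460 at 0.44 (adjusted p = 0.0985). Without control replicate 1 the change was 0.86 at ZNF324, 0.41 at ZNF571 and 0.65 at ZNF460, and 1.74 at ZNF837 and 1.14 at ZNF607. Without control replicate 2 ZNF571 was at 2.04. Without tazemetostat replicate 1 or 2 the changes of the 5 ran from 0.86 to 1.59, both at ZNF571. For these 5, fits that leave 1 library in a group are read for their changes alone, and not for whether a member passed.

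At the other end were the members with the smallest changes. ZNF526, outside the clusters, had 36.6, 32.8, 32.8 and 37.6. The groups overlapped fully and the change was 0.02 (SE 0.30, limma adjusted p = 0.955). ZNF491 in cluster 3 had 15.1, 10.5, 13.1 and 14.3, and ZNF587 in cluster 10 had 8.73, 28.2, 17.1 and 18.4. In both, the tazemetostat values lay between the controls, and the changes were 0.11 and 0.15. ZNF829 and ZNF568 start close together on opposite strands and share 1 region, with 15.7, 9.66, 10.1 and 20.3. Each group held a low and a high library there, and the change was 0.20 (SE 0.34, adjusted p = 0.589). The mouse counterpart of ZNF568 silences a placental transcript of Igf2. Relative to the median of all regions these 5 changes were -0.68 to -0.50, and all of them were negative with centred libraries, TMM or DESeq2 factors.

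Of the 16 members called under tazemetostat alone, ZNF682 in cluster 4 (chr19:20039092-20039741) had the highest mean tag count, from 29.7 and 23.0. ZNF524 in cluster 9 had 18.1 and 33.5, ZNF576 in cluster 7 had 27.2 and 23.3, ZNF865 in cluster 9 had 24.2 and 21.5, and ZNF780B outside the clusters had 19.7 and 14.7. Without a control peak there is no control value and no fold. The other 11 were ZNF358, ZNF317, ZNF699, ZNF90, ZNF227, ZNF285, ZNF175, ZNF610, ZNF628, ZNF582 and ZNF544, with values of at most 18.1. They came from 6 of the clusters and from outside. ZNF524 and ZNF865 are near neighbours in cluster 9, where ZNF628 and ZNF582 were also called under tazemetostat alone. With the same number of peaks from each library, 7 of the 16 kept that pattern (ZNF524, ZNF544, ZNF576, ZNF628, ZNF682, ZNF780B and ZNF865), and with peaks of at least 8-fold 4 did.

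**Figure D5:**
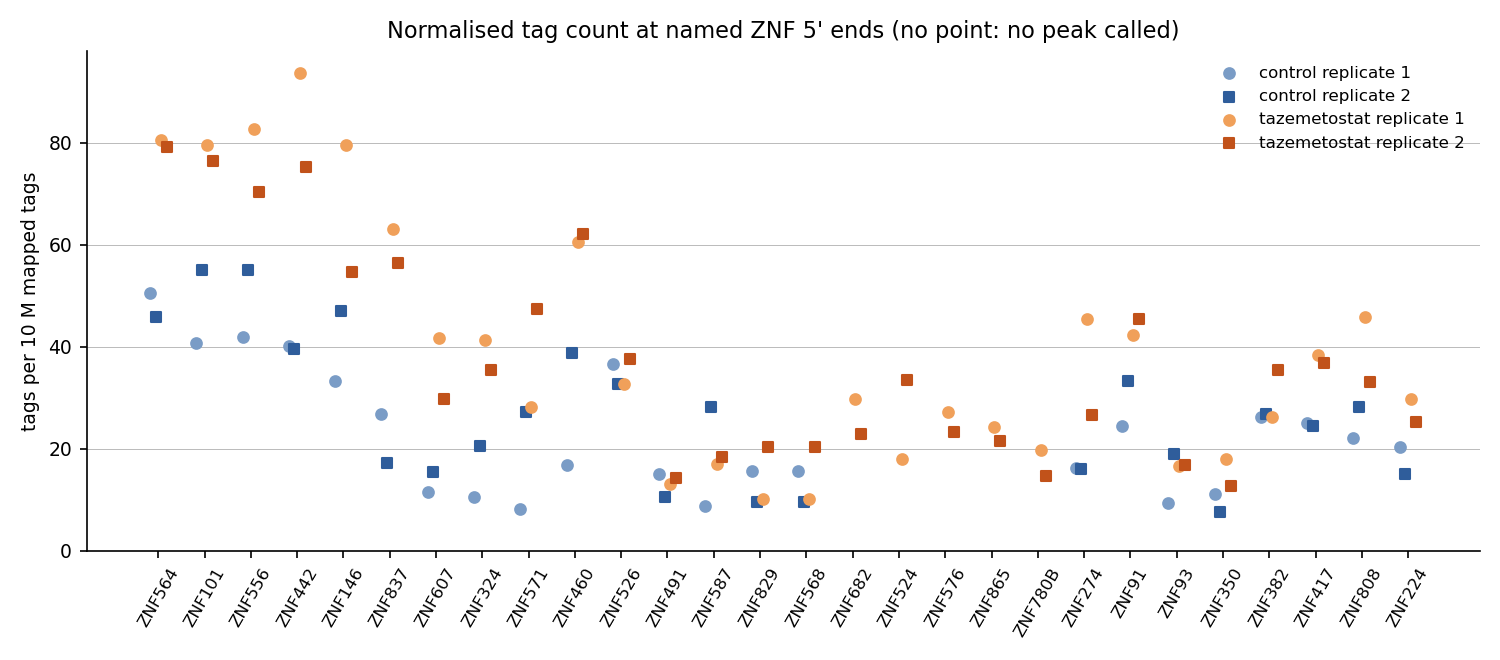
Normalised tag count (tags per 10 M mapped tags, vertical axis from 0) at the 5' ends of 28 named members that had a peak, with 1 point per library and no point where no peak was called. ZNF837 and ZNF442 have both tazemetostat points far above both control points, ZNF526 and ZNF568 do not, and ZNF682 to ZNF780B have tazemetostat points alone. ZNF829 and ZNF568 share 1 region and show the same 4 points.

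Members with a known role were read next. ZNF274, which brings SETDB1 to the ends of zinc finger genes, is in cluster 10 (chr19:58182749-58183691) and had 16.3, 16.0, 45.4 and 26.7. The controls agreed closely and the tazemetostat libraries less so, with a change of 1.06 (SE 0.31, limma adjusted p = 0.0177). ZNF91, which represses SVA elements, had 24.4, 33.2, 42.3 and 45.5 and a change of 0.61 (SE 0.30, adjusted p = 0.0928). ZNF93, which restrains a family of L1 elements, had 9.31, 18.9, 16.6 and 16.9. Its groups overlapped and the change was 0.31 (SE 0.33, adjusted p = 0.396). The paralogues ZNF587 and ZNF417 bind endogenous retroviruses of the HERVK group, and ZNF417 had 25.0, 24.4, 38.3 and 36.9 with a change of 0.59 (adjusted p = 0.0948). ZNF808, whose loss disturbs development of the pancreas, had 22.1, 28.2, 45.9 and 33.1 (0.62, adjusted p = 0.0900). ZNF350, a partner of BRCA1 in repression, had 11.1, 7.56, 18.1 and 12.8 (0.67, adjusted p = 0.0756), and ZNF224, a repressor of the aldolase A gene, had 20.4, 15.1, 29.7 and 25.2 (0.61, adjusted p = 0.0914). In these last 4 the groups did not overlap, but the changes did not pass the threshold and lay below the median of all regions. ZNF382 was called everywhere with 26.2, 26.9, 26.2 and 35.4 (summed where a library had more than 1 peak) and for that reason could not be tested, and ZNF471 had no peak at its 5' end in any library. Directions of ZNF91, ZNF93, ZNF417, ZNF808 and ZNF224 turned with centred libraries, TMM or DESeq2 factors, and that of ZNF350 with centred libraries.

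Of 191 members with a region, 174 (91.1%) had it across the 5' end itself. The 191 members had 184 different regions, since 7 regions each served a pair of members, namely ZNF829 and ZNF568, ZNF529 and ZNF382, ZNF790 and ZNF345, ZNF585B and ZNF383, ZNF432 and ZNF841, ZNF28 and ZNF468, and ZNF580 and ZNF581. Of the 191 members, 30 shared theirs with the 5' end of a coding gene that is no member. Tags of such regions cannot be assigned to one gene.

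Gene bodies of members were poorer in peaks than those of the other chromosome 19 genes. Member bodies covered 7.52 Mb over their full length. Beyond 1 kb from the 5' end they held 58, 84, 113 and 109 peaks, or 7.71, 11.2, 15.0 and 14.5 per Mb of that full length. The other genes had 15.6, 17.6, 31.4 and 25.6 per Mb over a full length of 27.0 Mb. Group means at members were 9.44 ± 2.45 and 14.8 ± 0.376 per Mb (SD, n = 2 each), 5.32 higher under tazemetostat and 1.56-fold, against 1.72-fold in the other genes. With equal numbers of peaks per library that difference turned to -0.80 per Mb, so its direction depended on that number. Few of these peaks lay in the final 25% of the gene, where finger exons usually are: 15.5%, 10.7%, 18.6% and 15.6%, against 26.5%, 25.7%, 25.2% and 23.5% in the other genes. Merged over the libraries there were 156 body regions, of which 43 were called in all 4, 17 under tazemetostat alone and 0 in the controls alone. Such shares were not counted over all merged regions or over body regions of other genes. More peaks were called in each tazemetostat library than in either control, so these counts are not read as particular to members.

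The body regions with the highest tag counts included other annotated starts. The one in ZNF565 is the promoter of ZNF146. That of ZNF444 (chr19:56140577-56141378), a SCAN-domain protein, lay 8378 bp from the GENCODE 5' end with 33.7, 37.8, 70.0 and 49.3, a change of 0.70 (SE 0.30, limma adjusted p = 0.0615), and ZNF444 was among the members with a peak in all 4 libraries at the RefSeq start. ZNF446 had 35.5, no peak, 59.0 and 47.8 at 1976 bp. Inside ZNF574, 7567 bp from its 5' end, a region had 36.1, 41.2, 61.5 and 50.8 (0.52, SE 0.30, adjusted p = 0.132), and one inside ZNF790 had 25.0, 43.3, 51.4 and 47.8 (0.58, SE 0.32, adjusted p = 0.121). The groups did not overlap at the 4 of these 5 regions that had 4 values, as at 81.6% of all regions. Of the 156 body regions 141 lay more than 1 kb from the GENCODE 5' end of any coding gene, with 1 such end taken per gene. The 141 therefore include regions near a member's own RefSeq start, as in ZNF112, ZNF420, ZNF444 and ZNF546. How many of the 141 lie near a RefSeq start was not counted, so they are not all apart from promoters.

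Silencing genes that are no members were read from a list of 19, which holds the partners through which KRAB proteins act, other enzymes of histone and DNA methylation and EZH2, the target of tazemetostat, which is not a known partner of KRAB proteins. Of these, 12 had a peak at the 5' end in all 4 libraries, where 30.8% of all coding genes had, and 3 (DNMT1, EHMT2 and UHRF1) in none. Of 10 that could be tested 3 were higher in limma, a share below the 42.7% of all regions, and 0 were lower (median 0.55, all regions 0.70). TRIM28, the corepressor bound by the KRAB domain, had 22.1, 18.9, 28.2 and 32.8, with a change of 0.55 (SE 0.30, adjusted p = 0.116). SETDB1 had 17.5, 17.6, 26.2 and 21.1, with a change of 0.40 (SE 0.30, adjusted p = 0.233). In both the groups were separate and the change lay below the median of all regions. The 3 that passed were CBX5, an HP1 protein, at 0.88 (adjusted p = 0.0290), MORC2, a silencing ATPase, at 0.78 (adjusted p = 0.0420) and EZH2 itself at 1.45 (adjusted p = 0.0063), from 12.2, 8.82, 32.3 and 27.9. Tazemetostat blocks the activity of the enzyme and leaves its gene intact, so the EZH2 promoter is no check of the treatment. With centred libraries, TMM or DESeq2 factors the changes of these 3 were positive and none passed. Per kb of peak MORC2 did not pass (0.28, adjusted p = 0.290), while CBX5 (0.61, adjusted p = 0.0247) and EZH2 (0.67, adjusted p = 0.0160) did. Without control replicate 1 the changes were 0.75 at CBX5, 0.88 at MORC2 and 1.66 at EZH2, and without control replicate 2 they were 1.02, 0.68 and 1.23. Without tazemetostat replicate 1 they were 0.69, 0.64 and 1.34, and without tazemetostat replicate 2 they were 1.07, 0.92 and 1.55. For these 3, fits that leave 1 library in a group are read for their changes alone, and not for whether a gene passed.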

How the data were processed

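ATAC-seq peaks of 4 HepG2 libraries were read per library, with groups and replicate numbers from the sample titles. Per the labels, the authors trimmed with Trim Galore 0.6.6, aligned with Bowtie2 2.3.5.1 to the hg38 build (inserts up to 2000 bp) and called 300 bp peaks with HOMER 4.11.1, stitched to variable length. The headers give a false discovery rate of 0.001 and the methods 0.05. Fragment length was 200 bp for controls and 144 bp for tazemetostat and cannot be told apart from treatment. Handling of multimapping tags is not given in the sources used here. As deposited, the normalised tag count is a signal per 10 M mapped tags, the deposited score is a count of tags and the deposited fold over local background is a ratio. The authors' p-value and clonal columns were not used.

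GENCODE release 44 coding genes on the same build gave 5' ends. Peaks overlapping by at least 1 bp were merged, and a member took the region nearest its 5' end within 1 kb. limma 3.58.1 (R 4.3.3) was fitted on log2(tag count + 1), so changes at low values are understated. edgeR 4.0.16 and DESeq2 1.42.0 used whole tags, recovered as normalised tag count times mapped tags, within 0.133 of a whole number, as alternatives, as were other windows, peak filters, scalings and left-out libraries. The fits were tested on simulated data with 200 of 15383 regions changed 3-fold and no shift common to all regions. Of the changed regions limma recovered 92%, edgeR 93% with header library sizes and 93.5% with TMM factors, and DESeq2 65%. The real libraries differed by a shift over all regions, so the simulated data cannot decide between the scalings. Wilson intervals take genes as independent draws, although members are tandem copies and some share a region, and they do not cover the spread between libraries. No molecular identifiers were mentioned. Members and lists were chosen with earlier results of these data known. Named are the 5 members with the highest tag counts, the 5 largest rises and falls relative to all regions, the 5 highest called under tazemetostat alone (none in controls alone), the 5 highest body regions, 13 members with a known role and 19 silencing genes. Other members were named after their values were seen. Promoter sequences are RefSeq (GRCh38.p14). Protein sequences were not analysed here, and some genes of the marker lists are not reported here.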

Additional observations from a re-analysis of the deposited data

How the results depend on the processing

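Each group has 2 libraries, and a position without a peak has no value, so depth and the number of peaks called limit every share of calls. Tandem copies share tags to an unknown extent. The rise in calls at members was 14.0 points and 10.8 to 17.3 points when 1 library was left out, 2.85 with peaks of at least 8-fold and 5.69 with equal peak numbers. The mean gap between members and other chromosome 19 genes was 31.3 points, 28.5 with windows of 2 kb, 34.5 with any coding 5' end, 35.3 with RefSeq starts, 23.5 with peaks of at least 8-fold and 28.4 with equal peak numbers (30.8 to 32.5 with 1 library left out). The median log2 change of members was 0.69, 0.39 per kb of peak, -0.074 with each library centred on its median and 0.50 to 0.82 with 1 library left out. Its difference from other chromosome 19 genes was 0.14, 0.057 with peaks of at least 8-fold, 0.053 per kb of peak and 0.10 to 0.18 with 1 library left out. Body peaks of members rose by 5.32 per Mb, by 1.86 with peaks of at least 8-fold, by -0.80 with equal peak numbers and by 3.59 to 7.05 with 1 library left out. The range between clusters was 64.9 points and 37.2 when 5' ends up to 1 Mb apart were joined. Members called under tazemetostat alone numbered 16, 8 with peaks of at least 8-fold, 10 with equal peak numbers and 16 to 39 with 1 library left out, alternatives chosen after the data were seen. The 43 members past the threshold became 7 of 18 tested with peaks of at least 8-fold and 0 with centred libraries, TMM factors in edgeR or DESeq2, and 0 to 67 with 1 library left out, where a lone library was assumed to vary like the others. In all regions 0, 27 and 3 were higher and 0, 186 and 103 lower in those 3 scaled fits. With peaks of at least 8-fold 1366 of all 2423 regions were higher, a larger share than the 7 of 18 members. Replicate numbers are shared between the groups, but paired libraries did not deviate together (r = -0.00246 over 15383 regions). A replicate block left 33 of 117 members higher and 0 lower, where 5046 of all 15383 regions were higher. The causes of these differences were not tested.

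Signs of single members turned mostly with the scale. With each library centred on its median the log2 change was -0.042 at ZNF564, -0.051 at ZNF101, -0.10 at ZNF556, -0.037 at ZNF146, -0.74 at ZNF526, -0.65 at ZNF491, -0.61 at ZNF587, -0.56 at ZNF829, -0.56 at ZNF568, -0.15 at ZNF91, -0.45 at ZNF93, -0.086 at ZNF350, -0.17 at ZNF417, -0.14 at ZNF808 and -0.15 at ZNF224. With TMM factors in edgeR it was -0.010 at ZNF101, -0.063 at ZNF556, -0.67 at ZNF526, -0.57 at ZNF491, -0.78 at ZNF587, -0.36 at ZNF829, -0.36 at ZNF568, -0.098 at ZNF91, -0.48 at ZNF93, -0.095 at ZNF417, -0.080 at ZNF808 and -0.069 at ZNF224. With DESeq2 factors it was -0.0081 at ZNF101, -0.061 at ZNF556, -0.69 at ZNF526, -0.61 at ZNF491, -0.74 at ZNF587, -0.42 at ZNF829, -0.42 at ZNF568, -0.097 at ZNF91, -0.46 at ZNF93, -0.11 at ZNF417, -0.078 at ZNF808 and -0.092 at ZNF224. Per kb of peak it was -0.038 at ZNF526, and in edgeR with header library sizes -0.10 at ZNF587. With 1 library left out the change ran from -0.077 to 0.11 at ZNF526, -0.13 to 0.35 at ZNF491, -0.64 to 0.95 at ZNF587, -0.27 to 0.67 at ZNF829, -0.27 to 0.67 at ZNF568 and -0.17 to 0.78 at ZNF93. Without control replicate 1 it was -0.64 at ZNF587 and -0.17 at ZNF93, without control replicate 2 -0.058 at ZNF526, -0.13 at ZNF491, -0.12 at ZNF829 and -0.12 at ZNF568, and without tazemetostat replicate 2 -0.077 at ZNF526, -0.27 at ZNF829 and -0.27 at ZNF568.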
